A study of Mus musculus with 30 samples.

Results

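The 8 genes described here make or break down prostaglandins, sense prostaglandin E2, or make nitric oxide on induction. They are the cyclooxygenases *Ptgs1* and *Ptgs2*, the synthases *Ptges* and *Ptgis*, the receptors *Ptger3* and *Ptger4*, the degrading enzyme *Hpgd* and the inducible nitric oxide synthase *Nos2*. They were chosen by name, and all 8 were found among the 24601 genes of the total RNA table, while 7 were found among the 26179 genes of the *RiboTag* tables. RNA came from the muscularis externa (*ME*) of the small bowel of male mice aged 10 to 12 weeks, naive or 3, 24 or 72 h after intestinal manipulation (IM3h, IM24h, IM72h), a laparotomy in which the bowel is rolled with moist cotton swabs. Total *ME* RNA was sequenced from 3 naive, 3 IM3h, 4 IM24h and 4 IM72h libraries. *RiboTag* mRNA, pulled down on HA-tagged ribosomes, was sequenced from 4 libraries at each time after IM, and 3 naive libraries were analysed here where the labels name 4.

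All mice carried the *Rpl22* tag allele (B6N.129 Rpl22tm1.1Psam/J). The labels give the driver Tg(Sox10-icre/ERT2)388Wdr/J, active after tamoxifen in *Sox10*-expressing glia, for all *RiboTag* libraries and for total RNA at IM24h and IM72h. For total RNA of naive and IM3h mice they give B6.Cg-Tg73.12Mvs/J(Gfap-cre). Mouse line and time after surgery therefore cannot be told apart when *ME* at IM24h or IM72h is set against *ME* of naive or IM3h mice, whereas IM3h and naive share a line. Naive *ME* and naive *RiboTag* libraries differ in line as well as in fraction, and these cannot be told apart either. The same holds for IM3h. All naive comparisons within a fraction share the same naive libraries. The study gives its replicates as animals, but the labels do not tie a library to an animal, so p-values are given for the spread between libraries.

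Cyclooxygenases turn arachidonic acid into prostaglandin H2. *Ptgs1* is the largely constitutive form and *Ptgs2* the form induced by injury and inflammation. Terminal synthases then make single prostanoids, which act on G-protein-coupled receptors and are inactivated by oxidation. In the bowel wall, prostaglandins and nitric oxide from inflamed muscularis are known to depress muscle contraction after surgery.

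Total counts ran from 6603170 to 12866062 in *ME* and from 3010306 to 7899493 in *RiboTag* libraries. In *ME*, ribosomal RNA genes took 23.02% to 42.61% of counts in naive and 33.67% to 34.64% in IM3h libraries. At IM24h they took 7.84% to 16.19% and at IM72h 3.02% to 4.69%, a split that goes with mouse line and time alike. The 4 *RiboTag* IM72h libraries were the thinnest, with 511322 to 1356226 counts outside ribosomal RNA genes and 8814 to 11729 genes detected, against 17262 to 19422 in naive *RiboTag* libraries. *RiboTag* IM24h libraries 2 and 3 were almost as thin, with 1449105 and 1527288 such counts and 13560 and 11629 genes. Of 8 glial markers, 7 were higher in naive *RiboTag* than in naive *ME*, with summed levels of 1640 to 1980 and 131 to 155 CPM (counts per 1000000, scaled by TMM). Markers of other cells were still present in the pull-down: 7 smooth muscle markers summed to 4910 to 7560 CPM in naive *RiboTag* and 22100 to 23700 CPM in naive *ME*. Values in *RiboTag* libraries are therefore levels in the pull-down, and the part that other cells had in them was not tested.

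The promoters of the constitutive and the inducible cyclooxygenase are shown because *Ptgs2* rose in both fractions at IM3h and *Ptgs1* was not called in either. Each run holds the 250 bases before the RefSeq start (GRCm38.p6), with matches to a C/EBP motif in capitals. *Ptgs2* lies on the plus strand at chr1:150099781-150100030 and *Ptgs1* on the plus strand at chr2:36230176-36230425.

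Ptgs2: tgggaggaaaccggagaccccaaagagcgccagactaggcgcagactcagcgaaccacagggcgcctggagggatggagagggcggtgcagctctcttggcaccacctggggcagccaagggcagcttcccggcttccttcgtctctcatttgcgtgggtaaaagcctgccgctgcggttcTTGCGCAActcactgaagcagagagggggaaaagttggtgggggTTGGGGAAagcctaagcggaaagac

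Ptgs1: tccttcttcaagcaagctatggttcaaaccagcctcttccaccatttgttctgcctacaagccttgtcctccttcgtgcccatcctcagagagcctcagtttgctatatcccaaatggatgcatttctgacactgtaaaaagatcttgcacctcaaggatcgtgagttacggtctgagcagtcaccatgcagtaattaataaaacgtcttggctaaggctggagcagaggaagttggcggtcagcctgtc

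Both strands were searched for TATAAA, TGACGTCA (CRE), TGANTCA (AP-1), TTNNGNAA (C/EBP) and the NF-kappaB decamer. The *Ptgs2* window held C/EBP matches at -69 to -62 and at -25 to -18, counted from the start, and the *Ptgs1* window held none of the 5 motifs. The C/EBP letters occurred in 36.8% of 32851 promoter windows, TATAAA in 12.4%, the NF-kappaB decamer in 7.25%, AP-1 in 6.75% and CRE in 1.55%, so these matches are a description only. Of the other members, *Hpgd* and *Ptges* held 1 C/EBP match each, and *Ptger3* and *Ptger4* held no match. *Ptgis* and *Nos2* were not matched in the promoter table.

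*Ptgs2* (ENSMUSG00000032487, mm10 chromosome 1) was the member with the largest called rise. In *ME* its level was 15.2, 12.3 and 12.8 CPM in naive libraries, 81.4, 106 and 85.8 CPM at IM3h, 123, 67.6, 129 and 40.4 CPM at IM24h, and 25.7, 19.2, 15.8 and 15.1 CPM at IM72h. Thus all libraries at IM3h and IM24h lay above all naive libraries, while those at IM72h overlapped them. *Ptgs2* rose at IM3h by 2.80 ± 0.15 (log2 fold change ± SE, adjusted p = 8.98e-07, edgeR quasi-likelihood test), and 24 h after the operation by 2.73 ± 0.38 (adjusted p = 0.000722). Monocyte and neutrophil markers rose over the same contrasts. Of those tested, 4 of 5 monocyte and 3 of 3 neutrophil markers rose at IM3h, and 4 of 6 and 5 of 5 at IM24h. The neutrophil sum went from 0.847 to 1.08 CPM in naive libraries to 25.1 to 33.8 CPM at IM3h and 46.3 to 215 CPM at IM24h. It leaves out *Ly6g*, which is not among the genes listed for *ME*, those with at least 10 counts in all. Of 8 resident macrophage markers 0 rose and 2 fell at IM3h, and 5 rose at IM24h, their sum going from 205 to 223 CPM in naive libraries to 166 to 188 CPM and 482 to 709 CPM. The part of these cells in the rise of *Ptgs2* was not tested. At IM72h its log2 fold change was 0.46 ± 0.20 (adjusted p = 0.0762), and it fell from IM24h to IM72h by 2.25 ± 0.29 on the log2 scale (adjusted p = 1.79e-05). Exact permutation of the library means gave p = 0.1 at IM3h, the smallest that 3 against 3 libraries allow, p = 0.0571 at IM24h, and p = 0.0286 between IM72h and IM24h.

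In *RiboTag* mRNA *Ptgs2* was at 1.02, 2.94 and 6.28 CPM in naive libraries and at 16.7, 30.1, 26.9 and 9.34 CPM at IM3h. Every IM3h library lay above every naive one. The rise of 2.66 ± 0.64 (adjusted p = 0.0168) was not detectably different from that in *ME*, the difference of the log2 fold changes being -0.07 ± 0.68 (adjusted p = 0.987). Its 95% interval, -1.40 to 1.26, leaves room for a difference of more than 2-fold in either direction. *Ptgs2* is on the study's list of acute enteric gliosis genes, which was drawn up in part on these libraries, so its direction at IM3h is not independent evidence. The call was lost on leaving out any of 4 libraries, IM3h 2, IM3h 3, naive 1 or naive 2, with log2 fold changes of 2.24 to 3.45 over all 7 omissions, and under scaling by *Actb*, *Hsp90ab1* and *Rplp1* (2.27, adjusted p = 0.143) and with all 4 groups in 1 fit (2.60, adjusted p = 1.0).

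Later *Ptgs2* values in *RiboTag* were uneven. At IM24h they were 5.67, 24.1, 3.10 and 31.7 CPM, and the log2 fold change of 2.28 ± 1.20 did not pass the test (adjusted p = 0.467). At IM72h 3 libraries held 0 counts and the other 75, which is 33.0 CPM. That library also had the lowest glial sum of its group, 201 CPM against 953 to 1460 CPM, and the highest smooth muscle sum, 8790 CPM against 2080 to 3390 CPM. The part of that shift in its *Ptgs2* value was not tested.

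**Figure D1:**
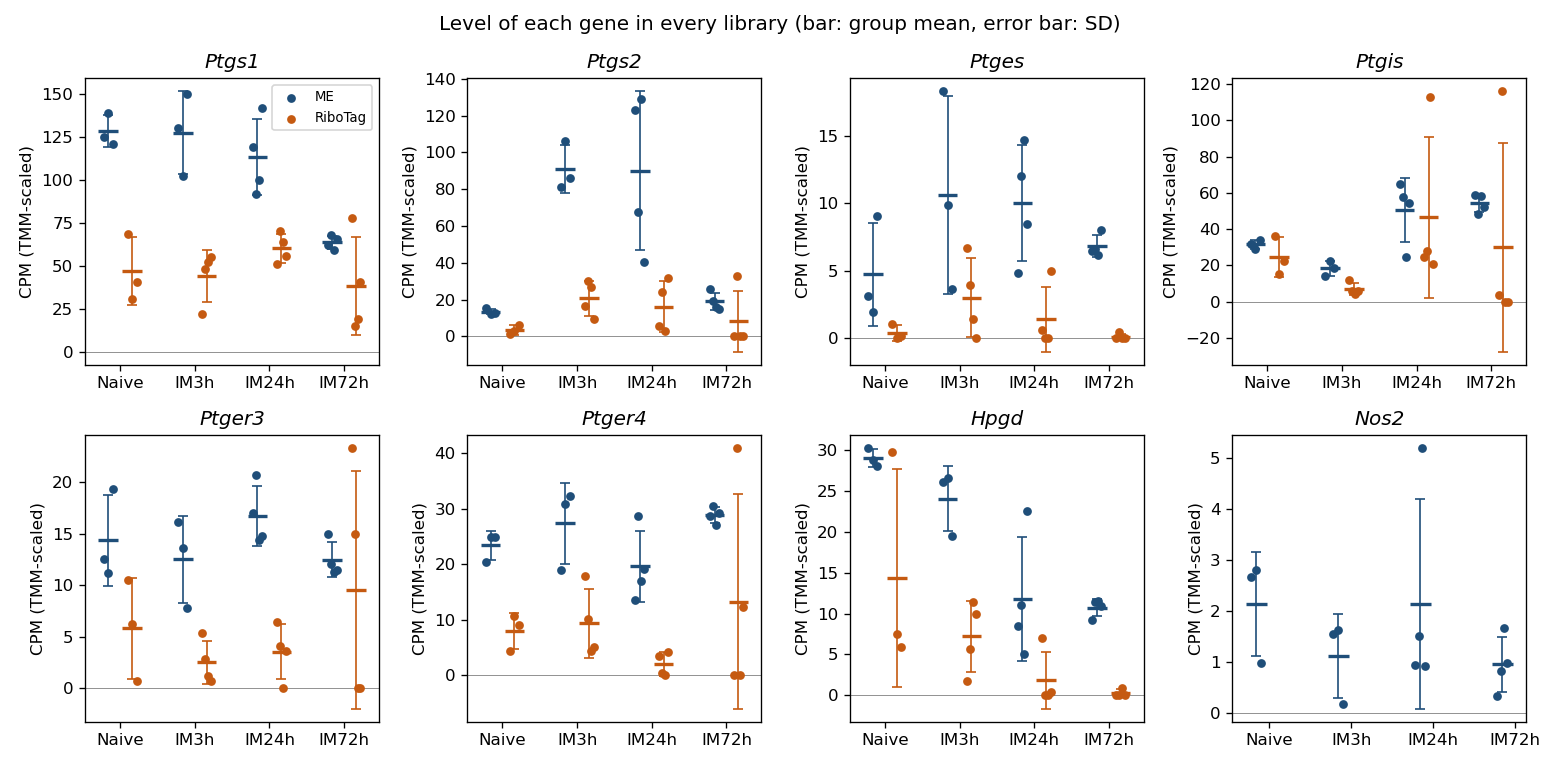
Levels of the 8 genes in TMM-scaled CPM (vertical axis, linear, each panel with its own range) in every library of total *ME* RNA (blue) and *RiboTag* mRNA (orange) by group, with the mean as a bar and the SD as an error bar. *Ptgs2* in *ME* lay at 40.4 to 129 CPM at IM3h and IM24h, above 12.3 to 15.2 CPM in naive libraries, and *Hpgd* in *RiboTag* was at 0 CPM in 3 of 4 IM72h libraries.

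*Ptgs1* (ENSMUSG00000047250, chromosome 2) showed no such rise. In *ME* it was at 125, 139 and 121 CPM in naive libraries, 130, 102 and 150 CPM at IM3h, 119, 91.9, 100 and 142 CPM at IM24h, and 61.9, 67.8, 59.3 and 65.3 CPM at IM72h. The first 3 groups overlapped, and the IM72h libraries lay below all others. The log2 fold change was 0.04 ± 0.15 at IM3h (adjusted p = 0.861) and -0.18 ± 0.18 at IM24h (adjusted p = 0.479), and *Ptgs1* fell at IM72h by 1.04 ± 0.11 on the log2 scale (adjusted p = 1.71e-05; exact permutation p = 0.0286). Without any scaling, which moved the median of all genes to 0.98, it was at -0.06 and not called (adjusted p = 0.866). The fall from IM24h to IM72h, 2 groups of the same mouse line, was 0.83 ± 0.15 (log2 fold change -0.83, adjusted p = 0.000312), and -0.40 without scaling (adjusted p = 0.147). At IM72h against naive *ME*, 4 of 7 smooth muscle markers fell, their sum going from 22100 to 23700 CPM down to 12400 to 20500 CPM. All 4 markers of interstitial cells of Cajal and 4 of 6 mesothelial markers fell, and of 8 neuronal markers 3 fell and 2 rose. At IM24h, when *Ptgs1* was not called, 5 of 7 smooth muscle markers were lower, with a sum of 3250 to 10800 CPM. From IM24h to IM72h, when *Ptgs1* fell, 5 of 7 smooth muscle markers rose and 1 fell. Over that step 3 of 4 markers of interstitial cells of Cajal fell. In bulk RNA, fewer cells of a type and less RNA per cell cannot be told apart, and the part of these cells in the fall of *Ptgs1* was not tested.

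In *RiboTag* mRNA *Ptgs1* was at 68.7, 30.5 and 40.7 CPM in naive libraries, 21.6 to 54.8 CPM at IM3h, 51.1 to 69.9 CPM at IM24h and 15 to 77.5 CPM at IM72h. All groups overlapped and no comparison with naive passed. Its naive level was below that in *ME*, of the other mouse line, by 1.10 ± 0.28 (log2 fold change -1.10, adjusted p = 0.0197). The call was lost with the library total (-0.39, adjusted p = 0.259) and without *RiboTag* library 3 or any 1 *ME* library, at -1.53 to -0.91 over all omissions. Of the reads assigned to *Ptgs1*, pooled over all groups, transcript 204 took 67.8% in *ME* and 64.0% in *RiboTag*, and transcript 201 took 30.0% and 29.1%. The split differed between groups of *ME*. Transcript 201 had 142.9, 83.5 and 158.5 counts in naive libraries and 411.9, 341.3, 218.1 and 423.1 at IM72h. Transcript 204 had 875.0, 546.4 and 810.5 counts in naive libraries and 320.1, 557.7, 563.9 and 574.9 at IM72h. These counts are not scaled for depth, and the shift was not tested.

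The balance of the 2 cyclooxygenases within a library is free of library scaling. The log2 ratio of *Ptgs2* to *Ptgs1* counts in *ME* was -3.25 ± 0.23 (SD, n = 3) in naive libraries, -0.48 ± 0.46 (n = 3) at IM3h, -0.46 ± 0.96 (n = 4) at IM24h and -1.77 ± 0.36 (n = 4) at IM72h. Each time point lay above naive without overlap, IM72h included, where *Ptgs2* alone did not pass. At IM72h the ratio was 1.48 above naive, with log2 fold changes of -1.04 for *Ptgs1* and 0.46 for *Ptgs2*. Most of that shift thus went with the lower *Ptgs1*. The exact permutation p was 0.1, 0.0571 and 0.0286 in that order, and 0.167 for each after adjustment over the 15 ratios tested. In *RiboTag* the ratio went from -4.01 ± 1.75 (SD, n = 3) to -1.13 ± 0.97 (n = 4) at IM3h, again without overlap (exact permutation p = 0.0571, adjusted p = 0.167). At IM24h it was -2.44 ± 1.56 (SD, n = 4) and overlapped naive. At IM72h 3 of 4 libraries held no *Ptgs2* count, so that their ratios were set by the 0.5 added to each count.

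*Ptges* makes prostaglandin E2 downstream of *Ptgs2*. In *ME* it was at 3.14, 1.94 and 9.08 CPM in naive libraries, 18.3, 9.89 and 3.66 CPM at IM3h, 4.80 to 14.7 CPM at IM24h and 6.19 to 8.0 CPM at IM72h. Every group overlapped naive. The log2 fold changes of 1.18 ± 0.61, 1.04 ± 0.55 and 0.44 ± 0.40 did not pass (adjusted p = 0.164, 0.183 and 0.357), and at each of these times the gene was called higher once naive library 3 was left out (2.03, 1.94 and 1.34). In *RiboTag* it had 8, 0 and 1 counts in naive libraries and 87, 41, 12 and 0 counts at IM3h. The log2 fold change of 3.01 ± 1.81 did not pass (adjusted p = 0.33).

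*Ptgis* (ENSMUSG00000017969, chromosome 2), which makes prostacyclin, first fell and later rose. In *ME* it was at 32.0, 29.1 and 34.1 CPM in naive libraries, 14.1, 22.4 and 18.6 CPM at IM3h, 65.0, 57.6, 24.6 and 54.7 CPM at IM24h, and 59.0, 48.3, 58.3 and 52.1 CPM at IM72h. IM3h lay wholly below naive and IM72h wholly above, while 1 IM24h library lay below naive. *Ptgis* fell at IM3h by 0.75 ± 0.18 on the log2 scale (adjusted p = 0.00979) and rose at IM72h by 0.74 ± 0.12 (adjusted p = 0.000398). The IM3h call was lost without scaling (-0.91, adjusted p = 0.0807) and with all 4 groups in 1 fit (-0.79, adjusted p = 0.0525), and did not reach the study's threshold of a 2-fold change. At IM24h the log2 fold change was 0.66 ± 0.29 (adjusted p = 0.115), and 0.90 with an adjusted p of 0.00626 without IM24h library 3. Scaling by *Actb*, *Hsp90ab1* and *Rplp1*, which moved the median of all genes at IM72h to -0.58, left *Ptgis* at 0.13 there (adjusted p = 0.497).

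Fibroblast markers were called in the same direction as *Ptgis* in *ME* at IM3h and IM72h. The sum of 5 fibroblast markers in *ME* was 2220 to 2350 CPM in naive libraries, 1070 to 1270 CPM at IM3h, 1450 to 3070 CPM at IM24h and 3950 to 4490 CPM at IM72h. Of the 5, 4 fell at IM3h and 3 rose at IM72h, while at IM24h 1 rose and 1 fell, with a median log2 fold change of 0.03. Mesothelial markers fell at IM3h too, 5 of 6, from a sum of 136 to 169 CPM to one of 15.8 to 64.1 CPM. The part of either list in the change of *Ptgis* was not tested.

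In *RiboTag* mRNA *Ptgis* went from 36.5, 15.2 and 22.3 CPM in naive libraries to 11.9, 6.11, 4.07 and 5.70 CPM at IM3h. The groups did not overlap. *Ptgis* fell by 1.77 ± 0.46 on the log2 scale (adjusted p = 0.0256; exact permutation p = 0.0286), and 3 of 5 fibroblast markers fell with it, their sum going from 721 to 994 CPM down to 303 to 431 CPM. So did 4 of 5 mesothelial markers tested, from 112 to 290 CPM down to 10.8 to 73.2 CPM, and 3 of 7 smooth muscle markers, from 4910 to 7560 CPM down to 1960 to 5050 CPM, and the part of these cells was not tested. The *Ptgis* call was lost without any of IM3h 2, IM3h 3, naive 1 or naive 3, with log2 fold changes of -2.14 to -1.36 over all omissions, and under the same 3-gene scaling (-1.99, adjusted p = 0.0886), without scaling (-1.37, adjusted p = 0.113) and with all 4 groups in 1 fit (-1.82, adjusted p = 1.0). At IM24h it was at 24.8, 27.8, 113 and 20.6 CPM and at IM72h at 3.80, 116, 0 and 0 CPM, and neither time passed. The IM24h library at 113 CPM was one of the thin ones, library 3, and had a fibroblast sum of 457 CPM, the group ranging from 437 to 978 CPM. The IM72h library at 116 CPM, library 2, had a fibroblast sum of 1770 CPM against 393 to 636 CPM in the other 3. The antisense genes *1110018N20Rik* and *Gm14291* overlap *Ptgis*, and without a stated strand setting their reads cannot be told from its own.

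**Figure D2:**
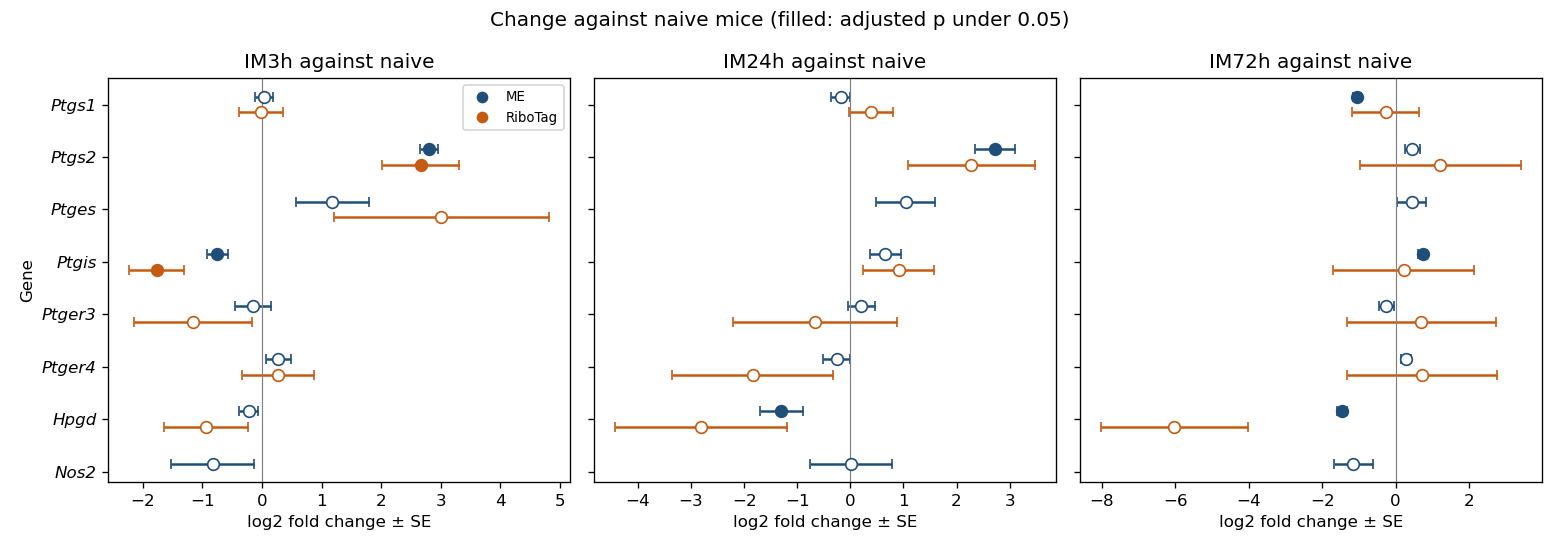
Log2 fold change against naive mice (horizontal axis, range differing between panels, error bars SE) of each gene that passed the filter, in total *ME* RNA (blue) and *RiboTag* mRNA (orange), with filled points where the adjusted p was under 0.05. *Ptgs2* at IM3h stood at 2.80 in *ME* and 2.66 in *RiboTag*, *Ptgis* at -0.75 and -1.77, and *Hpgd* in *ME* reached -1.46 at IM72h.

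The EP3 receptor gene *Ptger3* and the EP4 receptor gene *Ptger4* bind prostaglandin E2 and lower or raise cyclic AMP. *Ptger3* in *ME* ran from 11.2 to 19.4 CPM in naive libraries, 7.81 to 16.1 CPM at IM3h, 14.4 to 20.7 CPM at IM24h and 11.3 to 15 CPM at IM72h, with all groups overlapping. *Ptger4* in *ME* ran from 20.4 to 25 CPM in naive libraries, 18.9 to 32.4 CPM at IM3h, 13.6 to 28.7 CPM at IM24h and 27.1 to 30.6 CPM at IM72h. Neither passed against naive. The IM72h level of *Ptger4* lay above naive without overlap, at a log2 fold change of 0.28 ± 0.13 (adjusted p = 0.0848), and exceeded IM24h by 0.56 ± 0.21 (adjusted p = 0.0414), a call lost without any 1 of 7 of the 8 libraries, and also in DESeq2 (0.53, adjusted p = 0.0519), with RLE size factors, with the library total and with the 3 genes. *Ttc33* overlaps *Ptger4* on the opposite strand.

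In *RiboTag* both receptors were low and uneven. *Ptger3* was at 10.5, 6.21 and 0.711 CPM in naive libraries and 0.654 to 5.33 CPM at IM3h. *Ptger4* was at 4.45, 10.7 and 9.01 CPM in naive libraries, 4.30 to 17.9 CPM at IM3h, 0 to 4.20 CPM at IM24h and 0, 40.9, 0 and 12.3 CPM at IM72h. No change after IM passed the test. The naive level of *Ptger4* was lower in *RiboTag* than in *ME* (log2 fold change -1.18 ± 0.35, adjusted p = 0.037), again across the 2 mouse lines. This call too was lost with the library total (-0.42, adjusted p = 0.442) and without *RiboTag* library 3 or any 1 *ME* library, at -1.47 to -0.93 over all omissions.

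*Hpgd* (ENSMUSG00000031613, chromosome 8) encodes the enzyme that starts prostaglandin breakdown. In *ME* it was at 30.2, 28.8 and 28.0 CPM in naive libraries, 26.1, 26.6 and 19.5 CPM at IM3h, 8.48, 11.1, 5.01 and 22.5 CPM at IM24h, and 9.16, 11.4, 11.5 and 10.9 CPM at IM72h. Each group after IM lay below all naive libraries. *Hpgd* fell at IM24h by 1.30 ± 0.41 (log2 fold change -1.30, adjusted p = 0.0364) and at IM72h by 1.46 ± 0.13 (log2 fold change -1.46, adjusted p = 8.06e-06). At IM3h the log2 fold change was -0.22 ± 0.16 (adjusted p = 0.324). The IM24h call was lost without any 1 of 6 libraries, all but IM24h library 4, at log2 fold changes of -1.83 to -1.04 over the 7 omissions. Mesothelial markers fell already at IM3h, 5 of 6, when *Hpgd* did not pass, and 1 of 6 at IM24h and 4 of 6 at IM72h, their sum going from 136 to 169 CPM in naive libraries to 15.8 to 64.1, 7.61 to 121 and 42.0 to 105 CPM in that order. IM24h library 4, with *Hpgd* at 22.5 CPM, had the highest mesothelial sum of its group, 121 CPM against 7.61 to 23.2 CPM, and the highest smooth muscle sum, 10800 CPM. It also had the highest fibroblast (3070 CPM), interstitial cell of Cajal (381 CPM), resident macrophage (709 CPM), monocyte (768 CPM), glial (155 CPM) and epithelial (139 CPM) sums. Its mast cell sum, 2.07 CPM, was the highest too, and its neutrophil and neuronal sums, 46.3 and 438 CPM, were the lowest. The part of these cells in the fall of *Hpgd* was not tested. The IM24h call was also lost without scaling (-0.86), with the library total (-0.67) and with the 3 genes (-1.53). Without any scaling the IM72h value was -0.50 and not called (adjusted p = 0.15).

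In *RiboTag* mRNA *Hpgd* was at 29.7, 7.46 and 5.93 CPM in naive libraries, 1.70, 5.73, 11.4 and 10 CPM at IM3h, 7.05, 0, 0 and 0.382 CPM at IM24h, and 0, 0, 0.960 and 0 CPM at IM72h. The IM72h libraries held 1 count in all, against 350 in naive libraries. The ratio of the pooled levels was 0.0102, with a 95% interval of 0.000258 to 0.0572 that covers counting error only. Naive library 1 held 234 of the 350 counts. The fitted log2 fold change, -6.03 ± 2.0, depends on the prior count and did not pass (adjusted p = 0.0721; exact permutation p = 0.0286), while DESeq2 called it at -6.18 (adjusted p = 0.0142). It ran from -9.24 to -4.98 when single libraries were left out, and passed without IM72h library 3 (-9.24, adjusted p = 0.0411).

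The interaction test called *Hpgd* at IM72h, but on the same 1 *RiboTag* count at that time, so the size of the difference depends on the prior count and is no bound. The *RiboTag* response was fitted lower than the *ME* response by 5.19 ± 1.36 (log2 difference -5.19, adjusted p = 0.0125), 1 of 7 members tested. It was called on leaving out any 1 library, at -8.68 without *RiboTag* IM72h library 3 to -4.12 without *RiboTag* naive library 1. The same test called 21.1% of 16524 genes lower, and the median difference of all genes was -0.98, at the time point with the fewest detected genes. The *RiboTag* mesothelial marker sum fell over the same libraries, from 112 to 290 CPM in naive to 0 to 53.7 CPM at IM72h. The glial sum went from 1640 to 1980 CPM to 201 to 1460 CPM and the neuronal sum from 531 to 1080 CPM to 199 to 511 CPM. The part of these shifts was not tested.

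The log2 ratio of *Ptgs2* to *Hpgd* counts set synthesis beside breakdown. In *ME* it was -1.11 ± 0.12 (SD, n = 3) in naive libraries, 1.92 ± 0.25 (n = 3) at IM3h, 2.99 ± 1.67 (n = 4) at IM24h and 0.79 ± 0.48 (n = 4) at IM72h. All 3 groups lay above naive without overlap (exact permutation p = 0.1, 0.0571 and 0.0286, each 0.167 adjusted). At IM72h the ratio was 1.9 above naive, with log2 fold changes of -1.46 for *Hpgd* and 0.46 for *Ptgs2*, so most of that shift went with the lower *Hpgd*. In *RiboTag* it was -2.01 ± 2.51 (SD, n = 3) in naive libraries and 1.70 ± 1.46 (n = 4) at IM3h, overlapping naive. At IM24h 2 libraries had 0 *Hpgd* counts, and at IM72h 2 libraries had 0 counts of both genes and the other 2 had 75 to 0 and 0 to 1 counts of *Ptgs2* to *Hpgd*, so these ratios were set by the added 0.5 and are not read.

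**Figure D3:**
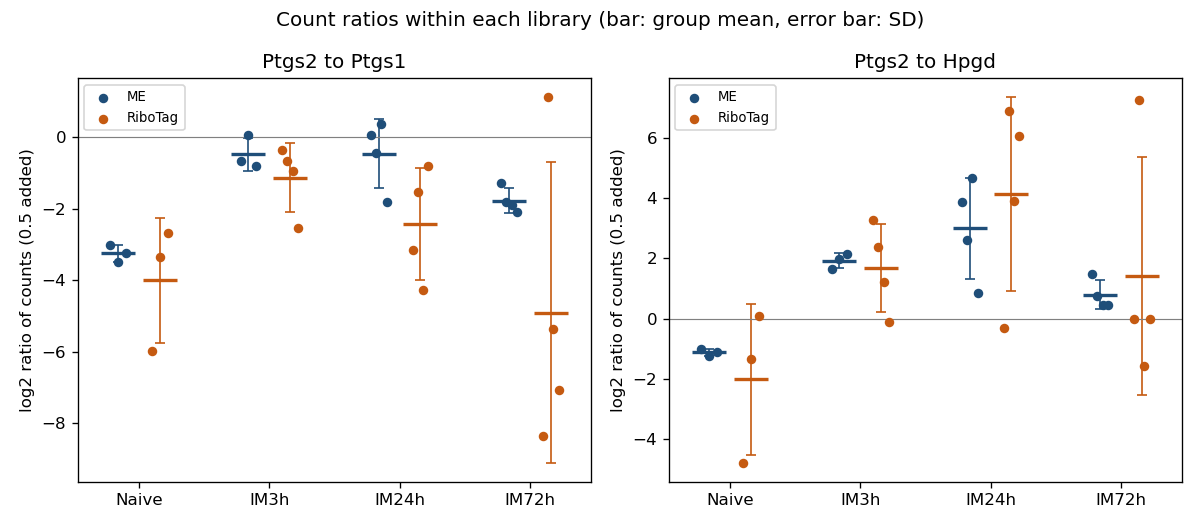
Log2 ratio of *Ptgs2* to *Ptgs1* counts (left) and of *Ptgs2* to *Hpgd* counts (right) within each library, after adding 0.5 to each count, by group in *ME* (blue) and *RiboTag* (orange), with means as bars and SD as error bars. *RiboTag* points with a count of 0, at IM24h and IM72h, are set by the added 0.5. In *ME* the mean ratio to *Ptgs1* went from -3.25 in naive to -0.48 at IM3h and the mean ratio to *Hpgd* from -1.11 to 1.92.

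*Nos2* (ENSMUSG00000020826, chromosome 11) was near the limit of detection. Naive *ME* libraries had 22, 13 and 8 counts and IM3h libraries 11, 11 and 1. At IM24h the counts were 10, 15, 57 and 8, and at IM72h they were 4, 11, 22 and 15. Only IM24h library 3, at 5.19 CPM, lay above the naive range of 0.969 to 2.80 CPM, and that library also had the highest neutrophil marker sum of its group, 215 CPM against 46.3 to 147 CPM. Log2 fold changes were -0.83 ± 0.69, 0.01 ± 0.77 and -1.15 ± 0.53 at IM3h, IM24h and IM72h, and none passed (adjusted p = 0.39, 0.993 and 0.0863). The 95% interval at IM24h ran from -1.50 to 1.53, so changes within that range are not excluded. The *RiboTag* tables analysed here list no *Nos2* transcript. They list transcripts with at least 10 counts over their 7 libraries, and a lower total corresponds to a mean under 0.147 CPM in the IM3h table, 0.232 CPM in the IM24h table and 0.311 CPM in the IM72h table.

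The neuronal synthase *Nos1* was far better covered. Its *ME* level was 65.5 ± 5.33 CPM (SD, n = 3) in naive libraries and 29.2 ± 6.53 CPM (n = 4) at IM72h, a fall of 1.19 ± 0.16 (log2 fold change -1.19, adjusted p = 0.000111). The log2 ratio of *Nos2* to *Nos1* stayed within overlapping ranges at every time point, with means of -5.02 in naive *ME* and -5.88, -5.08 and -5.05 after IM. The endothelial synthase *Nos3* was at 1.49 ± 1.36 CPM (SD, n = 3) in naive *ME* and passed at no time. Its IM3h libraries, at 3.52 to 4.49 CPM, nevertheless lay above the naive range of 0 to 2.66 CPM.

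The members' calls are given here beside the share of all genes called. At IM3h in *ME* 1 of 8 tested members was called higher and 1 lower, where 32.7% of 15333 genes were called in either direction. At IM24h the counts were 1 higher and 1 lower against 29.0% of genes, and at IM72h 1 higher and 2 lower against 57.5%. In *RiboTag* 1 of 7 tested was higher and 1 lower at IM3h against 13.3%. In edgeR 0 of 6 tested were called in *RiboTag* at IM24h, against 0.497% of genes, with 0 at an unadjusted p under 0.05 and 0 in DESeq2. At IM72h 0 of 6 were called against 16.1% of genes, with 1, *Hpgd*, at an unadjusted p under 0.05 and also in DESeq2. Between time points, 2 of 8 members in *ME* were called from IM3h to IM24h, a step across the 2 mouse lines, where *Ptgis* rose by 1.46 ± 0.26 (adjusted p = 0.000452) and *Hpgd* fell, against 36.4% of 17919 genes, and 3 of 8 from IM24h to IM72h against 43.0%. In *RiboTag* 0 of 7 were called in either step, against 0.251% and 3.51% of genes. Between the fractions, 2 of 6 tested members were called lower in naive *RiboTag* than in naive *ME*, against 25.8% of genes called in either direction. The response differed between fractions for 0 of 7 members at IM3h (1.66% of genes), 0 of 7 at IM24h (0.537%) and 1 of 7 at IM72h (23.3%). The members' median log2 fold change was -0.05, 0.11 and 0.02 in *ME* at IM3h, IM24h and IM72h, and the medians of all genes were 0.00, 0.02 and 0.02.

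Other genes of the prostanoid pathway changed in *ME* in both directions. Of 17 listed enzymes and transporters, 3 of 15 tested rose and 1 fell at IM3h, 3 of 16 rose and 2 fell at IM24h, and 7 of 17 rose and 3 fell at IM72h. The shares of all genes called were 32.7%, 29.0% and 57.5%. The phospholipase *Pla2g4b* rose by 2.21 ± 0.45 (adjusted p = 0.00433) and the prostaglandin transporter *Slco2a1* by 1.44 ± 0.25 (adjusted p = 0.00183) at IM3h. The thromboxane synthase *Tbxas1* rose by 1.70 ± 0.38 (adjusted p = 0.00822) at IM24h, where 5 of 8 resident macrophage and 4 of 6 monocyte markers also rose, whose part was not tested. At the same time the reductase *Ptgr1*, a further step of prostaglandin breakdown, fell by 1.55 ± 0.21 (log2 fold change -1.55, adjusted p = 0.00063). In *RiboTag* *Ptges3* was the 1 of 16 tested called higher at IM3h (0.75 ± 0.22, adjusted p = 0.046), against 13.3% of all genes called. *Abcc4* was the 1 of 14 called lower at IM72h, against 16.1%, on 1 count in its 4 libraries against 159 in naive ones, so that its fitted change depends on the prior count.

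Of the other 7 prostanoid receptors, 5 were tested in *ME*, and 2 rose and 3 fell at IM3h, 2 rose and 1 fell at IM24h, and 2 rose and 2 fell at IM72h. The shares of all genes called were 32.7%, 29.0% and 57.5%. The EP2 receptor gene *Ptger2* went from 9.25 to 52.9 CPM (log2 fold change 2.55 ± 0.15, adjusted p = 1.43e-06), and the prostacyclin receptor gene *Ptgir* from 8.61 to 34.6 CPM (2.06 ± 0.17, adjusted p = 1.41e-05). The thromboxane receptor gene *Tbxa2r* fell from 14.5 to 2.19 CPM (-2.65 ± 0.27, adjusted p = 5.63e-05). In *RiboTag* *Ptgir* rose from 3.73 to 18.5 CPM at IM3h (2.37 ± 0.57, adjusted p = 0.017), the only 1 of 5 tested receptors of this list called there, against 13.3% of all genes.

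Of 6 leukotriene genes, 0 of 3 tested were called by edgeR in *ME* at IM3h, where 32.7% of all genes were, and 0 had an unadjusted p under 0.05. At IM24h 2 of 5 rose (29.0% of all genes called), and at IM72h 4 of 5 rose and 1 fell (57.5%), led by *Alox15* (3.40 ± 0.71, adjusted p = 0.0018) and *Alox5ap* (3.13 ± 0.15, adjusted p = 2.76e-07). Over the same contrast 7 of 8 resident macrophage markers and 5 of 5 neutrophil markers tested rose, and their part was not tested.

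Of 17 other genes of the nitric oxide pathway, 2 of 15 tested rose in *ME* at IM3h and 3 fell. At IM24h 4 of 16 rose and 4 fell, and at IM72h 4 of 16 rose and 5 fell. The shares of all genes called were 32.7%, 29.0% and 57.5%. In *RiboTag* 1 of 16 rose and 1 fell at IM3h (13.3% of all genes called). There 0 of 15 were called at IM24h (0.497%), and at IM72h 0 of 15 rose and 3 fell (16.1%). *Arg1*, named after its values were seen, was at 0.484 to 1.51 CPM in naive *ME* and at 153 to 440 CPM at IM24h. *Gch1*, which starts tetrahydrobiopterin synthesis, rose in *ME* at IM3h by 2.23 ± 0.17 (adjusted p = 9.69e-06) and the arginine transporter *Slc7a1* by 1.97 ± 0.14 (adjusted p = 5.21e-06). *Slc7a1* also rose in *RiboTag* at IM3h, by 1.99 ± 0.29 (adjusted p = 0.00119). *Gucy1a1*, a subunit of the nitric oxide receptor, fell by 1.47 ± 0.11 (log2 fold change -1.47, adjusted p = 6.44e-06) at IM3h. *Gucy1b1*, its other subunit (-0.88), and *Spr*, which also acts in tetrahydrobiopterin synthesis (-0.53), were the other falls in *ME* at IM3h. Both are named after their values were seen.

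The genes whose levels ran most like a member's, by Pearson's r of log2 CPM over the 14 *ME* libraries and 17919 genes, were *Nmd3*, *Skil* and *Bcl10* for *Ptgs2* (r = 0.970, 0.968 and 0.959), *Clip1*, *Gm43847* and *Gm44022* for *Ptgs1* (0.966, 0.959 and 0.958), and *Col23a1*, *Abi3bp* and *Cox8b* for *Hpgd* (0.966, 0.958 and 0.944). For *Ptgis* they were *Dagla*, *Wdr41* and *Fbxo3* (0.950, 0.942 and 0.931). The points share time points, mouse lines and depth, so these values describe the libraries and carry no test.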

How the data were processed

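Total *ME* RNA and *RiboTag* mRNA were sequenced as 3′ end libraries (single-end, 50 bases). The authors trimmed and aligned the reads with STAR 2.5.3 to mm10 and quantified Ensembl release 99 in Partek Flow; the strand setting is not given in the sources used here. The deposited tables hold the authors' estimated counts, not scaled for library size, of genes and transcripts with at least 10 counts in all. Further deposited tables hold the authors' own fold changes and p-values and were not used. Group was read from the group entry of each table line. Lines match no single sample label, so library numbers only name a library.

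Transcripts were summed by symbol and rounded. Comparisons were made under R 4.3.3 in edgeR 4.0.16, which rests on limma 3.58.1, with TMM scaling, filterByExpr, the two-sided quasi-likelihood test on the libraries compared, and Benjamini-Hochberg adjustment over all genes tested; a gene was called at an adjusted p under 0.05. The response in *RiboTag* against *ME* was an interaction term. Levels are TMM-scaled CPM. Single genes and ratios (0.5 added to counts) were compared by exact two-sided permutation of libraries. Fits were tested on simulated data. Counting intervals and limits cover counting error only. Alternatives were other scalings, DESeq2 1.42.0, no filter, the study's threshold (unadjusted p under 0.05 and more than 2-fold), 1 fit of all groups, the *ME* transcript table, no ribosomal RNA genes, and each library left out.

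The members and lists were chosen with earlier results of these data known. Named are the members, up to 3 genes with the largest called change per pathway list and comparison with naive, *Nos1*, *Nos3*, and the 3 genes most alike to a member. *Ptges3* and *Ptgr1* fall under that rule. Coordinates are GENCODE M21 on mm10.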

Additional observations from a re-analysis of the deposited data

Results flagged for a closer look

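In 37 groups of 4 libraries, a gap test on the members' CPM marked 8 in which 1 library lay far from the other 3, where chance marks about 1 in 20 groups of normally distributed values. With 3 libraries at 0 the value is 1.0 by construction, so the 3 values of 1.0 show only that 1 library held counts. The gap divided by the range was 0.864 for *Nos2* in *ME* at IM24h (library 3, 57 counts). In *RiboTag* at IM24h it was 0.873 for *Ptges* (library 4, 26 counts), 0.922 for *Ptgis* (library 3, 255 counts) and 0.946 for *Hpgd* (library 1, 56 counts). In *RiboTag* at IM72h it was 1.0 for *Ptgs2* (library 2, 75 counts), 1.0 for *Ptges* and 1.0 for *Hpgd* (1 count each in the marked library), and 0.967 for *Ptgis* (library 2, 263 counts). The response of *Hpgd* at IM72h differed between fractions by an interaction test, with a fitted log2 difference of -5.19 (*RiboTag* minus *ME*) that rests on 1 count in the *RiboTag* IM72h libraries and depends on the prior count.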

How the results depend on the processing

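No paired analysis was possible because the lines of the count tables carry no replicate numbers. Depth limits the *RiboTag* values at IM72h and in IM24h libraries 2 and 3, and *Nos2* throughout, and the causes of the shifts below were not tested. In *ME* the rise of *Ptgs2* at IM3h and IM24h passed under every alternative that was fitted. Its log2 fold change lay between 2.64 and 2.87 at IM3h and between 2.52 and 2.97 at IM24h when single libraries were left out. Scalings moved the median of all genes, for *ME* at IM72h from 0.02 to 0.98 without scaling, 0.62 with the library total and -0.58 with *Actb*, *Hsp90ab1* and *Rplp1*. Without scaling *Ptgs1* and *Hpgd* at IM72h were -0.06 and -0.50 and no longer called.

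The number of members called against naive *ME* at IM3h was 2, and 1 without scaling, with all groups in 1 fit and at the study's threshold. At IM24h it was 2, but 4 with the library total and 1 with *Actb*, *Hsp90ab1* and *Rplp1*, and at IM72h 3, but 5 with the library total and 5 without the filter. For *RiboTag* at IM3h it was 2, but 1 without scaling and 0 with the 3 reference genes or all groups in 1 fit. For *RiboTag* at IM72h it was 0, but 1 without scaling, with the library total, with the 3 genes, in DESeq2 and at the study's threshold. From IM3h to IM24h in *ME* it was 2, but 4 with the library total and 1 with the 3 genes. From IM24h to IM72h in *ME* it was 3 and 1 at the study's threshold, and in *RiboTag* 0 and 1 without scaling. From IM3h to IM24h in *RiboTag* it was 0 and 1 at the study's threshold. For the response between fractions at IM72h it was 1, and 3 without scaling, and for naive *RiboTag* against naive *ME* it was 2, but 1 without scaling, 0 with the library total, 1 with the 3 genes and 4 in DESeq2. Leaving out single libraries gave 1 to 2 for *ME* IM24h, 3 to 5 for *ME* IM72h, 0 to 2 for *RiboTag* IM3h, 0 to 1 for *RiboTag* IM72h, 1 to 3 for *ME* IM24h against IM3h, 0 to 2 for *RiboTag* IM72h against IM24h, 0 to 1 and 1 to 3 for the responses at IM24h and IM72h, and 0 to 4 for the naive fractions. The count fell to 1 for *ME* IM24h without IM24h 1 or 2 or naive 1 or 2, and for *ME* IM24h against IM3h without IM24h 1 or IM3h 2. It became 5 for *ME* IM72h without naive 3. For *RiboTag* IM3h it was 0 without IM3h 2, IM3h 3 or naive 1 and 1 without naive 2 or 3, and it became 1 for *RiboTag* IM72h without IM72h 3 and 2 for *RiboTag* IM72h against IM24h without IM72h 2. The response at IM24h had 1 without *RiboTag* IM24h 1 and that at IM72h 3 without *RiboTag* IM72h 2. Between the naive fractions it was 4 without *RiboTag* naive 1, 1 without *RiboTag* naive 3 and 0 without any 1 *ME* library.

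Of single genes, 25 values lost a call and 20 gained one under these settings, and 32 and 8 on leaving out 1 library. The sign turned in 42 and 19 values, none of them called either way. Without any scaling this held for *Ptgs1* -0.09 in *ME* IM3h, *Ptger4* 0.26 and *Ptgs1* 0.34 in *ME* IM24h, *Ptger3* 0.67 in *ME* IM72h, *Ptgs1* 0.24 in *RiboTag* IM3h, *Ptgis* -0.37 and *Ptgs1* -0.60 in *RiboTag* IM24h, *Ptger3* -1.21, *Ptger4* -1.24, *Ptgis* -1.58 and *Ptgs2* -0.63 in *RiboTag* IM72h. With scaling by the library total this held for *Ptgs1* -0.21 in *ME* IM3h, *Ptger4* 0.38 and *Ptgs1* 0.47 in *ME* IM24h, *Ptger3* 0.34 in *ME* IM72h, *Ptgis* -0.26 and *Ptgs1* -0.56 in *RiboTag* IM24h, *Ptger3* -0.78, *Ptger4* -0.83, *Ptgis* -1.24 and *Ptgs2* -0.29 in *RiboTag* IM72h. With scaling by *Actb*, *Hsp90ab1* and *Rplp1* this held for *Ptger4* -0.14 and *Ptgs1* -0.36 in *ME* IM3h, *Nos2* -0.37 and *Ptger3* -0.21 in *ME* IM24h, *Ptger4* -0.33, *Ptges* -0.16 and *Ptgs2* -0.18 in *ME* IM72h, *Ptger4* -0.05 in *RiboTag* IM3h, *Ptgis* -0.81 and *Ptgs1* -1.07 in *RiboTag* IM24h, *Ptger3* -0.96, *Ptger4* -0.99, *Ptgis* -1.30 and *Ptgs2* -0.47 in *RiboTag* IM72h. With all groups in 1 fit this held for *Ptgs1* -0.0094 in *ME* IM3h. Without ribosomal RNA genes this held for *Ptgs1* -0.0028 in *ME* IM3h, *Ptgs1* 0.02 in *RiboTag* IM3h. With RLE size factors this held for *Nos2* -0.0033 in *ME* IM24h. In DESeq2 this held for *Nos2* -0.0044 in *ME* IM24h. Without the filter this held for *Nos2* -0.01 in *ME* IM24h, *Ptgs1* 0.0013 in *RiboTag* IM3h. When single libraries were left out, values ran through 0 for *Ptger3* (-0.39 to 0.10) and *Ptgs1* (-0.08 to 0.14) in *ME* IM3h, *Nos2* in *ME* IM24h (-0.91 to 0.27) and *Ptger3* in *ME* IM72h (-0.38 to 0.04). In *RiboTag* they did so for *Ptger4* (-0.23 to 0.55), *Ptgs1* (-0.24 to 0.38) and *Hpgd* (-1.30 to 0.18) at IM3h, *Ptger3* at IM24h (-1.22 to 0.04), and *Ptger3* (-0.24 to 1.39), *Ptger4* (-1.02 to 1.15), *Ptgis* (-4.26 to 0.65) and *Ptgs1* (-0.85 to 0.08) at IM72h. Changes in the log2 ratio of *Nos2* to *Nos1* in *ME* ran from -1.35 to 0.12, -0.63 to 0.36 and -0.47 to 0.34 at IM3h, IM24h and IM72h, and of *Ptgs2* to *Ptgs1* in *RiboTag* at IM72h from -2.91 to 0.25, where 3 of 4 libraries held no *Ptgs2* count.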
